A study of Homo sapiens with 8 samples.

Results

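Peaks of chromatin immunoprecipitation with sequencing were collected at the loci of 9 genes for costimulatory and checkpoint proteins of the immune synapse: CD40, CD80, CD86, ICOSLG, CD274, PDCD1LG2, CD70, TNFSF9 and TNFSF4. A locus was the gene body with 20 kb on both sides (hg38), and every peak that shared at least 1 bp with it was taken. This gave 76 of the 189160 peaks in 4 peak lists, and the 76 merged into 31 of 67328 regions where peaks of any list that shared a base were joined. The cells were OPM-2, an established human myeloma line with the t(4;14) translocation. All cultures ran for 72 h, with 1 µM all-trans retinoic acid (ATRA) plus 1 µM pomalidomide (POM), with 1 µM POM, with 1 µM ATRA, or with the solvent DMSO. ATRA is the ligand of the retinoic acid receptors, and POM directs the cereblon ubiquitin ligase to the transcription factors IKZF1 and IKZF3. Each treatment had 1 ChIP library and 1 input library, the labels do not name the antibody, and no result could be set against a spread between replicates or tested. A stronger peak in each cell and a peak in more of the cells cannot be told apart in such lists.

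T cells need a second signal beside the antigen receptor. CD80 and CD86, of the B7 family, bind the activating receptor CD28 and the inhibitory receptor CTLA4, and ICOSLG binds ICOS. CD274 (PD-L1) and PDCD1LG2 (PD-L2) bind the inhibitory receptor PDCD1 (PD-1), and tumor cells use them to blunt T cells. CD70, TNFSF9 (4-1BBL) and TNFSF4 (OX40L) are ligands of the tumor necrosis factor superfamily that bind CD27, TNFRSF9 and TNFRSF4, and CD40 is a receptor of that superfamily on B cells through which T cell help is received.

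The 4 lists held 47193 peaks with ATRA+POM, 54279 with POM, 36742 in the library labelled ATRA and 50946 under DMSO. Relative sequencing depth, inferred from the peak values, was 0.902 with ATRA+POM, 0.927 with POM and 0.133 in the ATRA-labelled library, relative to DMSO at 1. The ATRA-labelled library therefore stood apart, and an absent peak in it can be a matter of depth. None of the 31 regions was called in it without being called under DMSO, and only 115 of all 67328 regions were (0.171%), so this is no property of the 9 loci. Whether the library holds ATRA-treated chromatin, as its label says, could not be checked from the peaks, and each value under that label carries this doubt. The plasma cell markers SDC1, TNFRSF17, CD38, IRF4, PRDM1 and XBP1 each had peaks at their loci in all 4 lists. The 5 of them with a tabulated start (not TNFRSF17) had a peak within 1000 bp of it in every list. PAX5, CD3D, CD2, CD14, CSF1R and CD1C, the markers of other blood cells with a tabulated start, had none there in any list. Of all 13 markers of other blood cells, 10 had a peak at the wider locus with ATRA+POM, 10 with POM, 7 under the ATRA label and 8 under DMSO, with 24, 36, 20 and 27 peaks in all.

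The start of CD274 had the largest ratio of fold enrichment of the 9 loci for both ATRA+POM and POM over DMSO, so the 250 bases before it are shown first. The sequences are from RefSeq (GRCh38.p14), whose promoter table has 6 of the 9 genes with 7 start sites and no entry for CD40, PDCD1LG2 or CD70. The CD274 window is chr9:5450292-5450541, plus strand. Its capitals mark both overlapping matches to the interferon-stimulated response element, which begin 208 and 202 bases before the start and lie inside the ATRA+POM, POM and DMSO peaks. The summits of these peaks lie outside the window, 311 to 324 bases before the start. The window holds 95 of the 647 bases of the ATRA+POM peak, so the matches lie on its flank. The TNFSF4 window is chr1:173205533-173205782, minus strand, and its capitals mark the bases covered by POM peaks. The TNFSF9 window is chr19:6530776-6531025, plus strand, shown because it holds a match to the same element (in capitals) and no peak in any list.
CD274: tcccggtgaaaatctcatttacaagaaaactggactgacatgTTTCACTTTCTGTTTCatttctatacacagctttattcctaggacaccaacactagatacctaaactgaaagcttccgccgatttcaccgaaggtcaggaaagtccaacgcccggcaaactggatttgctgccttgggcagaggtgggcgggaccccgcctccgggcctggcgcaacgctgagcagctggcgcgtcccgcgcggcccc
TNFSF4: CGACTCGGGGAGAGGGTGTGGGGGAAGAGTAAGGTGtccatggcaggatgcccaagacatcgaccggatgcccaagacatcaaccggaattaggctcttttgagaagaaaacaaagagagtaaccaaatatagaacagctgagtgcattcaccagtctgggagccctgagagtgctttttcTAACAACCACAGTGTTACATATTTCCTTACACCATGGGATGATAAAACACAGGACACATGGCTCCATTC
TNFSF9: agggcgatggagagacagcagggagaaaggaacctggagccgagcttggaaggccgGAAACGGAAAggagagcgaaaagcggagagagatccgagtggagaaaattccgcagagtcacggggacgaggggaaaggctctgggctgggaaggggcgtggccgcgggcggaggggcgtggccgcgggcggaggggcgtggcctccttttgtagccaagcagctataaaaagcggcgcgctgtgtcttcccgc

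Both strands were searched for motifs in the 250 bases before the start. The interferon-stimulated response element was held by 2.71% of 22132 windows of protein-coding genes, and among the members by those of CD274 and TNFSF9 alone. CD274 also held AGGTCA, the core letters of the elements bound by retinoic acid receptors and other nuclear receptors, 117 bases before its start (10.5% of all windows). The match begins at position 5450425, past the called ends of the ATRA+POM (5450386) and POM (5450416) peaks and before that of the DMSO peak (5450514). Reads at the match were not measured, so these ends do not tell whether signal there differed. CD274 held the GC box GGGCGG at 63 bases (53.7%). The later CD86 start (position 122077784 on chromosome 3) held 2 matches to the NF-kB motif (1.78%), 82 and 20 bases before it, and 2 to the Ikaros core TGGGAA (20.1%). TNFSF9 held TGGGAA once. GC boxes were also in the windows of ICOSLG (4 matches) and TNFSF9 (2), which held no peak in any list. AP-1 letters (TGANTCA, 5.35%) were in none of the 7 member windows, and the TATA box TATAAA (9.0%) was in that of TNFSF9 alone. A match is a run of letters and not a shown binding site. GC content of the member windows ran from 34% at the earlier CD86 start to 79.2% at ICOSLG, where the median of all windows was 62%. The ICOSLG window had 36 CpG, the CD274 window 16 and the TNFSF4 window 5, beside a median of 16. Of the 7 windows only those of CD274 and TNFSF4 held a peak in any list, so neither GC content nor CpG number separated the windows with a peak from those without.

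By gene, 8 of the 9 loci held a peak in at least 1 list. Members with a peak numbered 7 with ATRA+POM, 7 with POM, 3 under the ATRA label and 6 under DMSO. Over all 19974 protein-coding genes with the same window, 67.9%, 73.7%, 62.8% and 72.6% had a peak in these lists in that order. The 9 loci held 20 peaks with ATRA+POM, 24 with POM, 9 under the ATRA label and 23 under DMSO. The median member had 2, 2, 0 and 2 peaks, beside 2 in each list over all genes. TNFSF4 has by far the longest locus, at 318 kb, and held 33 of the 76 peaks. Without it the other members held 13 peaks with ATRA+POM, 13 with POM, 4 under the ATRA label and 13 under DMSO. ICOSLG (chromosome 21, 44216981 to 44240943) had no peak in any list.

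**Figure D1:**
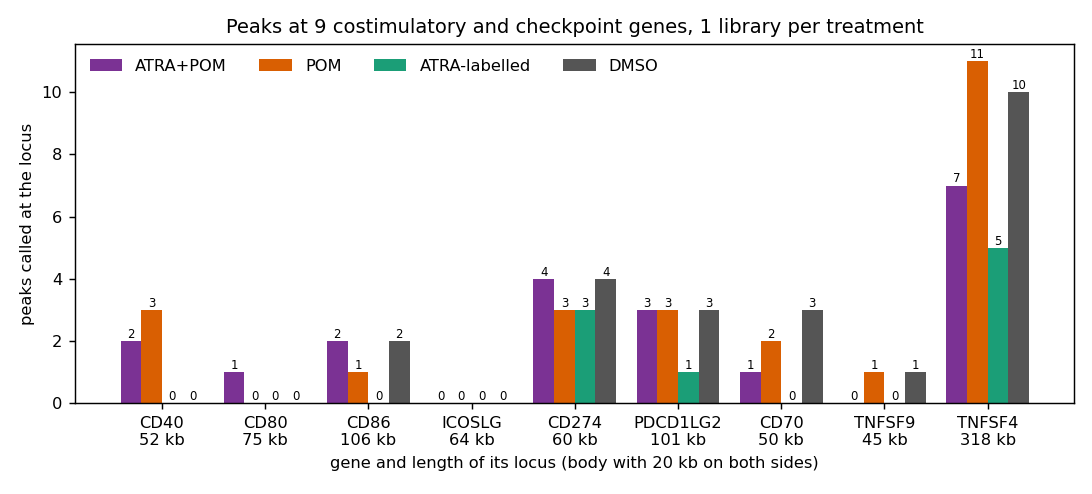
Number of peaks called at the locus of each gene (y axis) in the 4 lists, with the length of each locus under its name. Bars are single libraries without error. CD40 had peaks with ATRA+POM and POM alone, ICOSLG had none, and TNFSF4 had the most in every list.

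CD274 encodes PD-L1 (chromosome 9, 5450542 to 5470554, plus strand). A peak just before its start was called in all lists but the ATRA-labelled one. Enrichment over the local background, as the authors give it per peak, was 72.5-fold with ATRA+POM, 30.1 with POM and 6.93 under DMSO. The reads at the summit were 688 with ATRA+POM (95% exact Poisson interval 638 to 741, counting error only), 409 with POM (370 to 451) and 44 under DMSO (32.0 to 59.1). The summits lay 324, 311 and 320 bases before the start, so the peak sat in the same place in all 3 lists and differed in height. By fold enrichment it was number 258 of the ATRA+POM list, within its top 0.547%, number 8313 of the POM list and number 31549 of the DMSO list.

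The ratio of fold enrichment at the CD274 start was 3.39 on the log2 scale for ATRA+POM over DMSO and 2.12 for POM over DMSO. Of the 26253 regions called with both ATRA+POM and DMSO, 0.103% had a ratio as high, and of the 32829 called with both POM and DMSO, 2.70%. For ATRA+POM over POM the log2 ratio was 1.27, and 1.09% of 31667 shared regions were as high. Scaled by relative depth, the summit reads were 17.3 times those of DMSO with ATRA+POM (95% exact binomial interval 12.8 to 24.1) and 10.0 times with POM (7.33 to 14.0). ATRA+POM had 1.73 times the depth-scaled reads of POM (1.53 to 1.96), and these intervals hold counting error only. The median log2 ratio over all shared regions was −0.56 for ATRA+POM over DMSO, 0.08 for POM over DMSO and −0.66 for ATRA+POM over POM. The CD274 start was thus higher with ATRA+POM, where shared regions were mostly lower.

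The other peaks of the CD274 locus did not share this order. A peak 262 to 292 bases past the start (5450647 to 5451368 over the lists) had fold enrichments of 7.47 with ATRA+POM, 9.28 with POM and 4.57 under DMSO. Its depth-scaled reads with ATRA+POM were 0.915 times those with POM (0.658 to 1.27), so these 2 lists differed by less than counting error. Against DMSO they were 2.07 times with ATRA+POM (1.39 to 3.14) and 2.27 times with POM (1.53 to 3.41). A broad region over the upper end of the neighboring gene PLGRKT (5436933 to 5438761), with summits 13042 to 13069 bp before the CD274 start at its strongest peaks, was called in all 4 lists. At its strongest it reached a fold enrichment of 13.2 with ATRA+POM, 45.8 with POM, 19.2 under the ATRA label and 23 under DMSO. There ATRA+POM was the lowest of the 4, and its log2 ratio was −0.80 over DMSO and −1.79 over POM.

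The ATRA-labelled library had no peak at the CD274 start. The 44 DMSO reads, scaled to its depth, come to 5.84 with a −log10 p of 4.78, below the least value of 5.08 in that list, so a height like that of DMSO was not detectable at this depth. The ATRA+POM reads would come to 101 with a −log10 p of 153, and the POM reads to 58.6 with 66.6, both above that limit.

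PDCD1LG2, for PD-L2, lies 40.0 kb past CD274 on the same chromosome (5510531 to 5571282). The strongest peak of its locus lay between both genes, 23.5 kb past CD274 and 16.4 kb before PDCD1LG2 (region 5492978 to 5494894). It falls inside INCR1, an annotated long noncoding RNA gene that also overlaps PDCD1LG2. It was enriched 26.6-fold with ATRA+POM, 47.9 with POM, 7.60 under the ATRA label and 15.5 under DMSO. Summit reads were 259, 525, 21 and 235 in that order, and POM was the highest by either measure. The POM over DMSO log2 ratio of 1.63 was reached by 5.59% of shared regions, and depth-scaled reads were 2.41 times those of DMSO (2.06 to 2.82). ATRA+POM over DMSO gave a log2 ratio of 0.78 and 1.22 times the depth-scaled reads (1.02 to 1.46).

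At the lower end of PDCD1LG2, which is its start since the gene is read toward higher coordinates, a narrow peak (5510553 to 5510738) was called with ATRA+POM alone, with a fold enrichment of 5.38 and 43 reads. A POM peak near the other end (5569204 to 5569407) had 23 reads and no counterpart. Just beyond that end (5571601 to 5572015) fold enrichments were 6.34 with ATRA+POM, 6.19 with POM and 3.42 under DMSO. The PDCD1LG2 count was 3 peaks in each of these lists and 1 in the ATRA-labelled list. The equal counts do not stand for the same regions. Under DMSO the region between the genes was split into 2 peaks (5493203 to 5493374 and 5493427 to 5494619), where ATRA+POM and POM had 1 each.

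**Figure D2:**
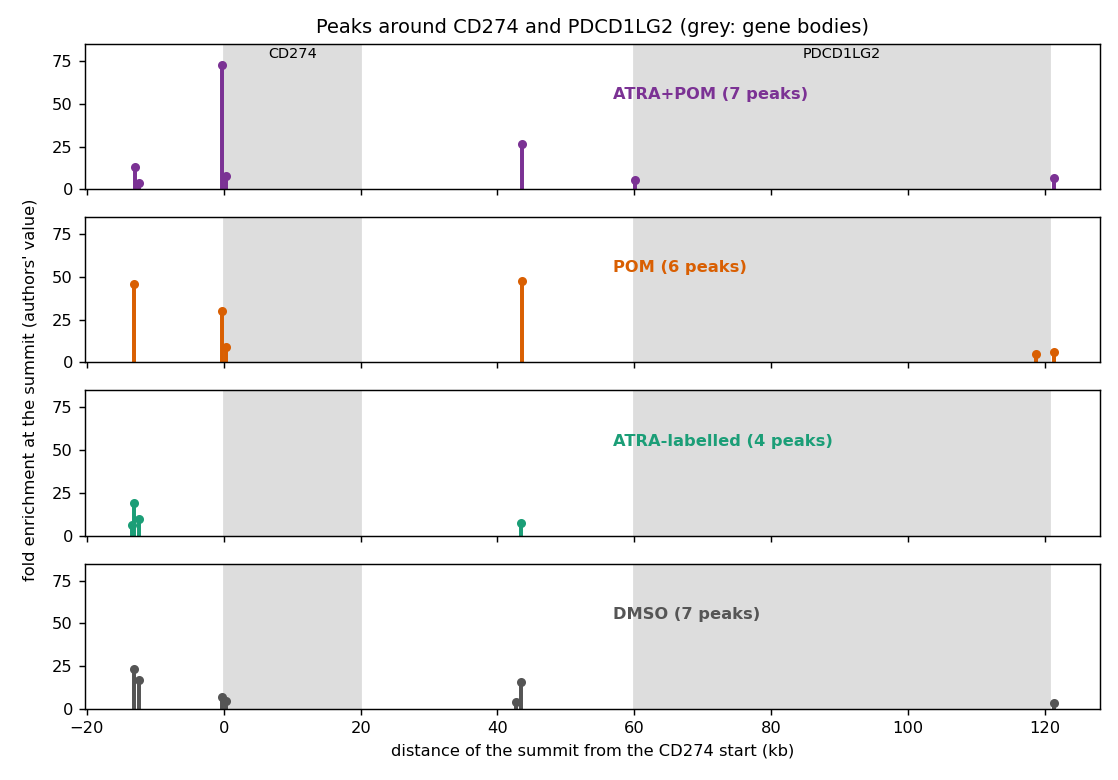
Fold enrichment at each summit (y axis, the authors' value) against its distance from the CD274 start in kb (x axis), with 1 panel per list and the gene bodies in grey. The peak at the CD274 start reaches 72.5 with ATRA+POM, 30.1 with POM and 6.93 under DMSO and is missing in the ATRA-labelled panel, while the peak between the genes is highest with POM at 47.9.

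CD40 (chromosome 20, 46118314 to 46129858) had 2 peaks with ATRA+POM and 3 with POM, and 0 under the ATRA label and under DMSO. All lay in 1 cluster 209 to 1042 bp past the upper end of the gene (46129909 to 46131039), and none lay inside the gene. CD40 is read toward higher coordinates, so this cluster is past its 3′ end and not at its start. The strongest reached 17.3-fold enrichment and 85 reads with ATRA+POM (67.9 to 105), and 13.3-fold and 83 reads with POM (66.1 to 103). The depth-scaled read ratio of ATRA+POM to POM was 1.05 (0.768 to 1.44), so the heights in both lists differed by less than counting error. At the depth of DMSO the POM reads would come to 89.5 with a −log10 p of 73.1, and no DMSO peak was called. At the ATRA-labelled depth they would come to 11.9 with a −log10 p of 11.5, which also is above the limit of that list. The monocyte marker CSF1R had the same pattern of lists, with 2 peaks with ATRA+POM, 6 with POM, and 0 under the ATRA label and under DMSO, none at its start. The monocyte markers CD14 and LYZ did not have this pattern. In the same order of lists CD14 had 2, 3, 2 and 4 peaks, and LYZ had 2, 2, 2 and 1. The part of CSF1R in the CD40 result was not tested.

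The B7 ligands CD80 and CD86 had few peaks, and none at a start. The CD80 locus (gene body on chromosome 3, 119524293 to 119559614) had a single peak in all lists, with ATRA+POM (119508044 to 119508452, fold enrichment 5.01, 16 reads), inside the neighboring gene TIMMDC1. CD86 (chromosome 3, 122055362 to 122121136) had a peak inside the gene with ATRA+POM alone (122091461 to 122091833, fold enrichment 13.8, 60 reads). Another lay further on in the gene under DMSO alone (122094402 to 122094792, fold enrichment 4.32, 35 reads). A further one, before the gene inside ILDR1 (122035691 to 122036266), had fold enrichments of 3.43 with ATRA+POM, 16.3 with POM and 4.28 under DMSO. Its summit reads were 27, 55 and 32. The POM value rests in part on a local background of 2.43 reads, against 6.71 under DMSO, and depth-scaled reads were 1.85 times those of DMSO (1.18 to 2.96).

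CD70 and TNFSF9, for the ligands of CD27 and TNFRSF9, lie 45.7 kb apart on chromosome 19. CD70 (6581648 to 6591150) had 1 peak with ATRA+POM, 2 with POM, 0 under the ATRA label and 3 under DMSO. The gene is read toward lower coordinates, so its peaks above the upper end are upstream of it. The nearest region (6592241 to 6592975) was called with POM and under DMSO, with fold enrichments of 15.2 and 11.1 and summit reads of 51 and 93. Fold enrichment and reads pointed in opposite directions here. The log2 ratio of fold was 0.45, while the depth-scaled reads with POM were 0.591 times those under DMSO (0.412 to 0.841), and the local background was 2.43 reads with POM and 7.47 under DMSO. No peak was called there with ATRA+POM. The farther region (6603872 to 6604120) had fold enrichments of 5.02 with ATRA+POM, 5.65 with POM and 5.09 under DMSO. Its summit reads were 64, 61 and 98. Depth-scaled reads were 0.724 times those of DMSO with ATRA+POM (0.520 to 1.00) and 0.671 times with POM (0.479 to 0.934). Scaled to the ATRA-labelled depth, the 3 DMSO peaks of CD70 would have 12.7, 12.3 and 13.0 reads with −log10 p of 8.26, 10.6 and 6.49, and none was called.

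TNFSF9 (6531026 to 6535924) had a POM peak 14655 bp before the gene (6516278 to 6516480, fold enrichment 10.6, 57 reads) and a DMSO peak 620 bp past it (6536453 to 6536643, fold enrichment 5.08, 47 reads). Its count of 1 in both lists therefore stands for different places. It had none with ATRA+POM or in the ATRA-labelled list.

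TNFSF4 (chromosome 1, 173172870 to 173450733) had 7 peaks with ATRA+POM, 11 with POM, 5 under the ATRA label and 10 under DMSO, in 14 regions. The annotated body of 278 kb reaches 245 kb above the start site of the promoter table (173205532, minus strand), so most regions lie before that start. Regions from position 173254200 upward also overlap the annotated gene LOC100506023, and those from 173429198 upward overlap PRDX6-AS1 as well. The highest peak in each list lay in the same region (173429198 to 173431313) with ATRA+POM, POM, under the ATRA label and under DMSO, at fold enrichments of 15.2, 46.6, 11 and 11.7. Summit reads were 326, 957, 45 and 375 in that order. POM was highest by both measures, with a log2 ratio of 1.99 over DMSO that 3.24% of shared regions reached.

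Within TNFSF4, reads differed most between POM and DMSO at a region with its POM summit 124167 bp before the start (173328777 to 173329904). Fold enrichments were 6.13 with ATRA+POM, 18.9 with POM and 5.74 under DMSO, with 259, 1063 and 154 summit reads. Depth-scaled POM reads were 7.44 times those of DMSO (6.28 to 8.87), and ATRA+POM reads were 0.250 times those of POM (0.218 to 0.287). The neighboring region (173329976 to 173330832) had fold enrichments of 4.17 with ATRA+POM and 12.7 with POM, with no peak in the other lists. Over the start itself POM had 115 reads (173205067 to 173205601, fold enrichment 5.05) and DMSO 51 (2.37), and a POM peak 289 bases before it had 116 reads. ATRA+POM had no peak at the start. Past the start, a region at 173190255 to 173190778 had fold enrichments of 7.76 with ATRA+POM, 14.8 with POM, 7.84 under the ATRA label and 9.53 under DMSO. Its neighbor (173190841 to 173191580) had 8.48 with ATRA+POM, 17.0 with POM and 6.44 under DMSO. POM was again the highest at both. The peaks of 5 weaker regions had fold enrichments of 2.48 to 5.26 and lay in the POM list (4 regions), the DMSO list (2) or the ATRA+POM list (1). In 1 of them (173254200 to 173254722) ATRA+POM stood above POM, with fold enrichments of 4.02 and 3.38, 131 and 53 reads, and a depth-scaled read ratio of 2.54 (1.83 to 3.56). Regions with ATRA-labelled summits 7964 and 239637 bp before the start were called under the ATRA label and under DMSO alone, with fold enrichments of 6.33 and 5.86 at the nearer and 6.32 and 5.59 at the farther. At the TNFSF4 peaks the median local background was 31.1 reads with ATRA+POM, 22 with POM, 3.43 under the ATRA label and 25.8 under DMSO, beside list medians of 7.17, 6.65, 1.23 and 8.17. Only 0.600%, 2.72%, 2.53% and 1.70% of the peaks of these lists had as much, so equal reads give a lower fold enrichment at TNFSF4 than at the other members. The part of this background in the TNFSF4 values was not tested.

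**Figure D3:**
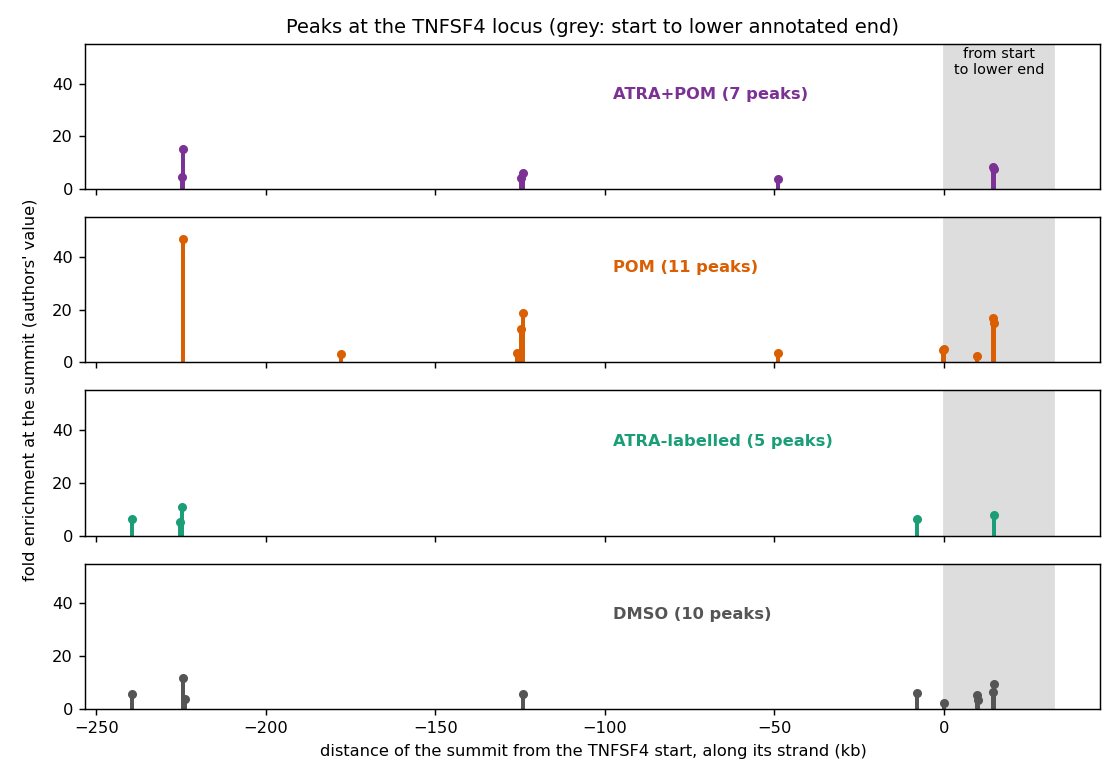
Fold enrichment at each summit (y axis) of the TNFSF4 locus against its distance from the start along the minus strand in kb (x axis; negative is before the start), with 1 panel per list and the stretch from the start to the lower annotated end in grey. POM reaches 46.6 at 224321 bp before the start, where the other lists lie between 11 and 15.2.

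POM against DMSO addressed the effect of pomalidomide by itself. Of the 9 members, 2 had more peaks (CD40 and TNFSF4; 29.0% of all genes had more) and 3 fewer (CD86, CD274 and CD70; 26.1%). At CD274 and CD70 both lists called the same regions, and the lower counts come from splitting. The CD274 region over PLGRKT and the nearest CD70 region each held 1 POM peak and 2 DMSO peaks. With peaks within 500 bp merged, 1 member had fewer. CD40 was the 1 member with a peak with POM and none under DMSO (4.18% of genes). Counts of peaks thus stood near the background. Heights did not follow the counts. In 8 of the 14 regions called in both lists the fold enrichment with POM was at least 2 times that under DMSO, where 15.0% of all shared regions passed. It was at most 1/2 in 0 of 14, where 10.1% did. By depth-scaled reads 9 of 14 passed at 2 times, beside 14.3% of all. By the same measure both CD70 regions were lower with POM, at 0.591 and 0.671 times DMSO. The 8 were 4 at TNFSF4 (1 of them over its start), 2 at the CD274 start, 1 before CD86 and 1 between CD274 and PDCD1LG2. The median log2 ratio of fold was 1.06 over the 14 and 0.08 over all. The 14 share few loci, since 6 are at TNFSF4 and 5 at the CD274 and PDCD1LG2 pair, and they are not independent.

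ATRA+POM against DMSO addressed the effect of both compounds. Of the 9 members, 2 had more peaks (CD40 and CD80; 24.0% of genes) and 3 fewer (CD70, TNFSF9 and TNFSF4; 36.2%). The 2 with more had no DMSO peak (3.04% of genes). Of 11 regions called in both lists, 1 had a fold enrichment at least 2 times that of DMSO (7.66% of all), which is the CD274 start. None was at most 1/2 (31.2% of all). By depth-scaled reads 3 of 11 were at least 2 times DMSO (9.79% of all), namely both regions at the CD274 start and the one past PDCD1LG2. The median log2 ratio was 0.37 over the 11 and −0.56 over all shared regions.

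ATRA+POM against POM addressed what the retinoid added. Of the 9 members, 3 had more peaks (CD80, CD86 and CD274; 19.5% of genes) and 4 fewer (CD40, CD70, TNFSF9 and TNFSF4; 36.5%). At CD274 and CD40 both lists called the same regions, and the counts differ only by the splitting of a region. The CD274 region over PLGRKT held 2 peaks with ATRA+POM and 1 with POM. The stronger CD40 region held 1 peak with ATRA+POM and 2 with POM. The fold enrichment was at least 2 times that of POM in 1 of 15 shared regions, again the CD274 start (2.18% of all). It was at most 1/2 in 6 of 15, 4 of them at TNFSF4, 1 over PLGRKT and 1 before CD86, where 31.9% of all regions were as low. By depth-scaled reads 6 of 15 were at most 1/2, beside 31.2% of all. On the high side the measures differed, since by reads the CD274 start was 1.73 times POM, under 2 times, and a TNFSF4 region (173254200 to 173254722) was 2.54 times POM. Any pair of these 3 comparisons shares a list: DMSO, ATRA+POM, or POM, which is divided by DMSO in the first and divides ATRA+POM here. Their values are therefore not separate evidence.

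The ATRA-labelled library against DMSO addressed the effect of the retinoid by itself, as far as the label holds. No member had more peaks (15.9% of genes) and 6 had fewer (41.9%). In the 6 shared regions the fold enrichment was at least 2 times that of DMSO in 0 (0.207% of all) and at most 1/2 in 1 (12.5%), the region between CD274 and PDCD1LG2 with 7.60 and 15.5. At the ATRA-labelled depth 13 of the 23 DMSO peaks would pass a −log10 p of 5, and 6 of these 13 lay in regions without an ATRA-labelled peak: the 3 at CD70 and 3 at TNFSF4. Over the whole DMSO list 64.9% would pass, and 77.0% of those were called. ATRA+POM against the ATRA-labelled library gave 7 members with more peaks (31.7% of genes) and 0 with fewer (21.3%). At the ATRA-labelled depth 16 of the 20 ATRA+POM peaks would pass, and 11 of these were not called, while 69.9% of all passing ATRA+POM peaks were called. These shares rest on inferred depths and on 1 library each.

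**Figure D4:**
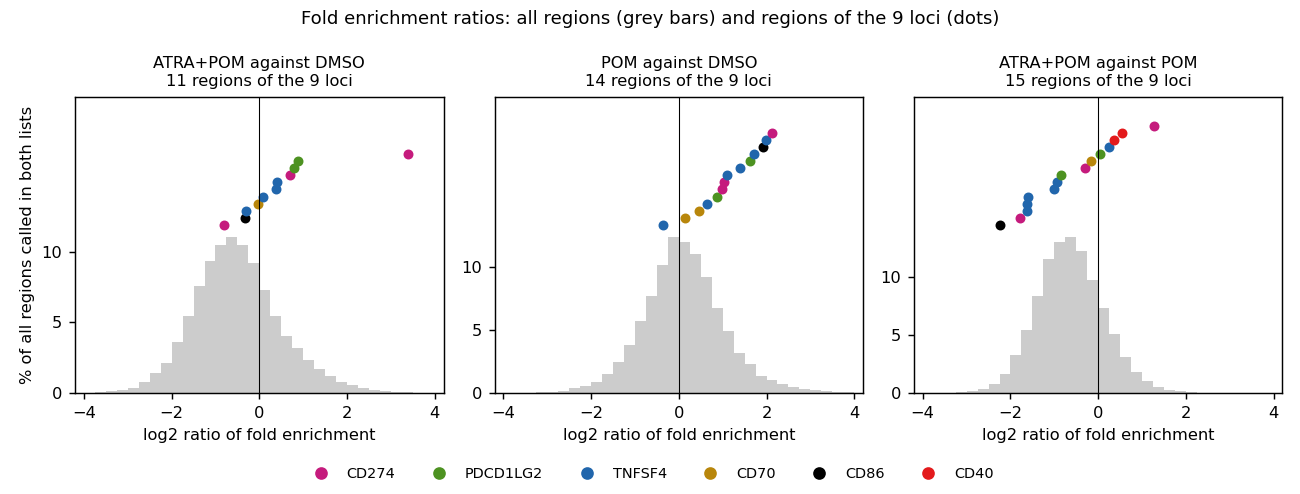
Share of all regions called in both lists (y axis, %, grey bars) by the log2 ratio of fold enrichment (x axis), and the regions of the 9 loci as dots colored by gene at arbitrary height. The CD274 start is the dot farthest right in each panel, at 3.39, 2.12 and 1.27.

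By the set of lists that called them, 7 of the 31 regions (22.6%) were called with ATRA+POM, POM and DMSO and not under the ATRA label (8.62% of all 67328 regions). Depth bears on this set. At the ATRA-labelled depth their DMSO peaks would have −log10 p of 2.85 before CD86, 4.78 and 3.31 at the CD274 start and 2.43 past PDCD1LG2. These are below the least value of 5.08 in that list. Those of the CD70 region (6.49) and the TNFSF4 regions (15.5 and 10.2) are above it. All 4 lists shared 4 (12.9%; 28.8% of all). ATRA+POM and POM alone shared 4 (12.9%; 9.60%), which were both CD40 regions and 2 at TNFSF4. POM alone called 5 (16.1%; 14.3%), ATRA+POM alone 3 (9.68%; 5.23%) and DMSO alone 3 (9.68%; 16.3%). Another 3 were called with POM and DMSO alone (9.68%; 7.49%), and 2 under the ATRA label and under DMSO alone (6.45%; 4.11%). Of the 31 regions 19 overlapped the body of the member, 3 overlapped another protein-coding gene (PLGRKT, ILDR1 or TIMMDC1), and 9 lay in no protein-coding gene. At the edge of the window, the ATRA+POM summit of the CD86 region in ILDR1 lay 19.3 kb from the gene. Just outside were 2 DMSO peaks 22.3 and 22.7 kb before TNFSF9 with fold enrichments of 7.08 and 6.44. Others were a DMSO peak 24.6 kb before CD86 (4.48) and peaks 24.4 to 24.5 kb below the lower end of CD80 with ATRA+POM (5.31), POM (9.91) and DMSO (5.08). Above PDCD1LG2, at 22.6 to 23 kb, there was an ATRA-labelled peak (8.98) and DMSO peaks (8.68 and 8.39).

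**Figure D5:**
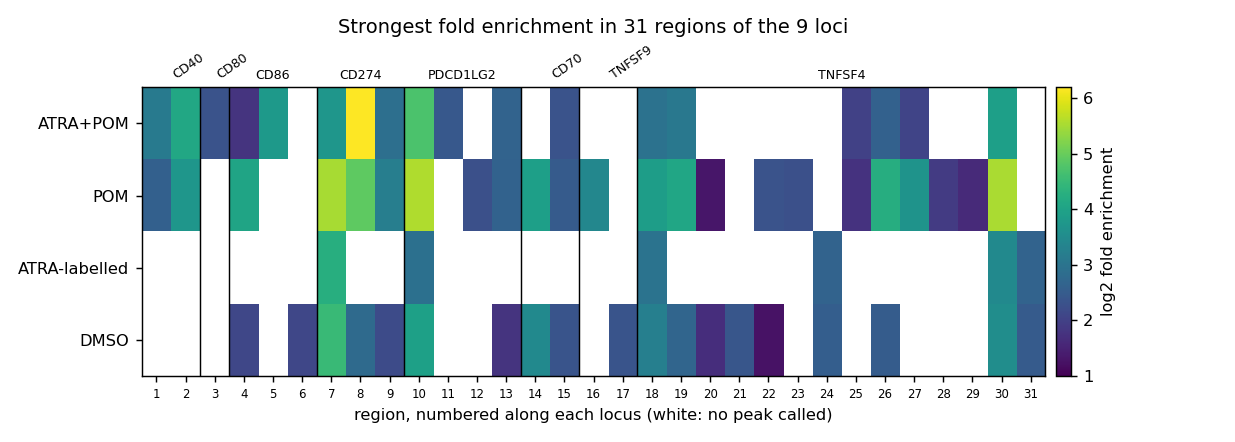
Strongest log2 fold enrichment (color) of each of the 31 regions (x axis, numbered along each locus) in the 4 lists (rows). White means that no peak was called. ICOSLG has no region, regions 1 and 2 at CD40 are filled with ATRA+POM and POM alone, and region 8 at the CD274 start is highest with ATRA+POM.

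Other genes of these pathways were counted with the same window, on lists chosen with earlier results known. With POM against DMSO, peaks were more numerous at 4 and fewer at 2 of the 8 receptors of the members. They were more numerous at 3 and fewer at 5 of 14 other B7-related ligands, at 4 and 1 of 14 other TNF superfamily ligands, at 7 and 3 of 15 genes of CD40 and NF-kB signalling, and at 1 and 5 of 12 genes of interferon signalling and PD-L1 regulation, beside 29.0% and 26.1% of all genes. With ATRA+POM against DMSO the numbers with more and with fewer were 3 and 2, 4 and 5, 3 and 5, 7 and 7, and 5 and 4 in the same order, beside 24.0% and 36.2% of all genes.

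At the tabulated starts of these genes (within 1000 bp), no receptor differed between lists in whether a peak was called. CD28, the receptor of CD80 and CD86, had a start peak in every list, with fold enrichments of 51.3 with ATRA+POM, 136 with POM, 63.4 under the ATRA label and 56.0 under DMSO. TNFSF10 (TRAIL, a death ligand) had a start peak with ATRA+POM (5.13) and POM (5.57) and none in the other lists. CD58, an adhesion ligand of T cells, had one with POM (6.12) and DMSO (15.2), and PVR, a ligand of TIGIT, with POM (13.4) and DMSO (9.59), and neither had one with ATRA+POM or in the ATRA-labelled list, where depth can again bear on an absence.

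Among the signalling genes, TRAF3, an adaptor that restrains the noncanonical NF-kB pathway, had a start peak with POM (4.05) and DMSO (6.39) alone. TRAF2, another adaptor of CD40, lacked one with ATRA+POM alone, at 7.91 with POM, 11.8 under the ATRA label and 12.8 under DMSO. BIRC3, a ubiquitin ligase of that pathway, lacked one under the ATRA label alone, with 3.90 with ATRA+POM, 10.5 with POM and 4.82 under DMSO. IFNGR1, a chain of the interferon gamma receptor, lacked one with ATRA+POM alone, at 11.8 with POM, 10.9 under the ATRA label and 22.1 under DMSO. IFNGR2, the other chain, lacked one under the ATRA label alone, at 8.06 with ATRA+POM, 8.74 with POM and 4.51 under DMSO. JAK2, a kinase of that receptor, had start fold enrichments of 8.95 with ATRA+POM, 19.5 with POM, 14.5 under the ATRA label and 18.4 under DMSO. STAT2 had 15.7, 26.3, 22.3 and 28.2, and IRF1 7.16, 11.4, 5.96 and 20.4, in the same order of lists. CD28, JAK2, STAT2 and IRF1 were chosen after their values were seen. The interferon list had 8 starts called with both ATRA+POM and DMSO. Fold enrichment with ATRA+POM was lower at 7 of them and higher at 1 (IFNGR2). It was also lower at 9 of 10 such starts of CD40 and NF-kB signalling. The same held for 4 of 5 plasma cell markers, 2 of 3 other B7-related ligands and the 1 receptor start (CD28). Lower values were thus not particular to the interferon list. Over all shared regions, at starts or elsewhere, 27.6% were higher.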

How the data were processed

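ChIP-seq of OPM-2 cells gave 4 deposited peak lists in narrowPeak layout, 1 per treatment; 4 input libraries have no list of their own here. The reads were aligned to hg38, per the submitters' processing notes, while aligner, peak caller and antibody are not stated, so not given in the sources used here. The authors deposited, for each peak, a score, a fold enrichment over local background, and −log10 of the p-value and q-value; none is scaled between libraries. Peaks outside chromosomes 1 to 22 and X were left out.

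Gene bodies came from the RefSeq table (GRCh38.p14), promoter windows from its promoter table, which holds neither CD40, PDCD1LG2 nor CD70. Peaks sharing 1 bp with a gene body ± 20 kb were counted for all 19974 protein-coding genes. Summit and background reads were recovered from the deposited fold and p-value under a Poisson model with 1 added to both. They came out whole within 0.02 for 100.0% of peaks, and relative depth was inferred from them, so depth itself is an estimate. Intervals are 95% exact Poisson or binomial and cover counting error only. With 1 library per treatment no test across samples was made. Counting, merging and read recovery were tested on simulated data. The 9 members and the gene lists were chosen with earlier results of these data known. All members are named, and from each list the genes whose start was called in 1 list of a comparison and not in the other. Alternatives were other thresholds, windows, overlaps and merging. Computation used pandas 2.3.3 with scipy 1.17.1 and numpy 2.4.6 in Python 3.11.15, and matplotlib 3.10.9 for figures. The result of 1 further motif search is not reported here.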

Additional observations from a re-analysis of the deposited data

How the results depend on the processing

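No paired analysis was possible because each treatment had 1 ChIP library. Depth limits absences in the ATRA-labelled list most. The overlap of 50% of the peak moved none of the 21 counts by over 1.5 times. With the stronger 50% of each list, peaks over the 9 loci were 13 with ATRA+POM, 12 with POM, 3 ATRA-labelled and 11 with DMSO, in 16 regions, 3 of them in ATRA+POM, POM and DMSO alone and 1 in POM alone. Members with more and fewer peaks were then 4 and 1 for ATRA+POM against DMSO and 1 and 1 for ATRA+POM against POM. With lists cut to equal length by strength, DMSO had 15 peaks, 4 members had more with POM than DMSO, 2 had fewer in the ATRA-labelled list than DMSO and 2 fewer with ATRA+POM than POM. Regions in ATRA+POM, POM and DMSO alone were then 4 and in DMSO alone 1.

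With a fold enrichment of at least 10, peaks were 6 with ATRA+POM, 12 with POM, 2 ATRA-labelled and 5 with DMSO, in 13 regions. Members with more and fewer were then 4 and 0 for POM against DMSO. Fewer were 1 for ATRA+POM and 3 for the ATRA-labelled list against DMSO, and more were 0 for ATRA+POM against POM and 4 against the ATRA-labelled list. Regions in all 4 lists were 2, in ATRA+POM, POM and DMSO alone 1, in ATRA+POM and POM alone 2, in ATRA+POM alone 1 and in DMSO alone 0. With a window of 5 kb the ATRA-labelled list had 5 peaks, 1 member had more with ATRA+POM than POM, and 2 regions were in all 4 lists. With peaks within 500 bp merged, 1 member had fewer with POM than DMSO and 2 regions were in ATRA+POM and POM alone. For POM against DMSO the direction of the counts was not stable. Members with more and fewer were 2 and 3 in the main setting. They were 3 and 2 with the stronger 50% of each list and 4 and 2 with lists of equal length. They were 3 and 3 with a window of 5 kb and 3 and 1 with merging.

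The remaining alternatives were chosen after seeing the data. Without TNFSF4, peaks were 13 with ATRA+POM, 13 with POM, 4 ATRA-labelled and 13 with DMSO, in 17 regions, and 1 member had more with POM than DMSO. Then 2 regions each were in all 4 lists, in ATRA+POM and POM alone and in POM alone. Without the ATRA-labelled list, 11 regions were in ATRA+POM, POM and DMSO and 5 in DMSO alone. By depth-scaled reads the log2 ratio at the CD274 start was 4.12 for ATRA+POM over DMSO, 3.33 for POM over DMSO and 0.79 for ATRA+POM over POM. Over PLGRKT it was 0.42 for POM over DMSO and −1.14 for ATRA+POM over POM. The cause of these differences was not tested.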

Other observations

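Among other B7-related ligands, the locus of CD276 (B7-H3), a gene chosen after its values were seen, held 2 peaks with ATRA+POM, 4 with POM, 0 under the ATRA label and 0 under DMSO. This pattern was not particular to CD276. In the same order of lists ICOS had 1, 2, 0 and 0 peaks, FASLG 7, 6, 0 and 0, and TNFSF10 1, 1, 0 and 0. Of all genes, 4.18% had a peak with POM and none under DMSO.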
